A study of Mus musculus with 4 samples.

Results

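Secretoglobins are small secreted proteins, and 3 of them mark the secretory cells that line the conducting airways of the mouse lung: Scgb1a1, Scgb3a1 and Scgb3a2. The 3 genes were taken by name from the count tables of 4 lung sections, in which they were 3 of 32285 genes and 3 of 34 symbols that start with Scgb. The sections came from C57BL/6J mice, 1 male and 1 female in each group. The vaped (V) mice had inhaled Peach Ice flavored aerosol from JUUL pens in whole body chambers for 9 weeks, in daily sessions of 4 h and 5 days a week, starting at 6 to 8 weeks of age. The study's methods name air-exposed controls for its protein blots. They do not say which handling the non-vaped (NV) mice of these sections had, or their age when the lungs were taken. Cryosections of 10 µm, labelled as upper pulmonary branches, were placed on Visium arrays. Each array spot has a barcode and captures polyadenylated RNA from the tissue lying on it, and a unique molecular identifier (UMI) lets each captured molecule be counted once.

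Scgb1a1, also known as club cell secretory protein or uteroglobin, is the main secreted product of club cells, the secretory and progenitor cells of the bronchioles. Scgb3a2 is made by club cells together with Scgb1a1 and appears early in lung development. Scgb3a1 is known from secretory cells of the larger, proximal airways. The 3 proteins enter the fluid that lines the airways, and their genes are used to recognise airway epithelium in lung tissue, where alveoli lack them or hold far less.

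No other gene of the GENCODE annotation of GRCm38 overlapped any of the 3 genes, and the nearest gene was 2826 bases away or more. Scgb1a1 (ENSMUSG00000024653) lies on the minus strand of chromosome 19 at 9083636 to 9087958. Scgb3a1 (ENSMUSG00000064057) lies on the plus strand of chromosome 11 at 49663610 to 49665118. The coding sequences of Scgb1a1, of 291 bases, and Scgb3a1, of 315 bases, are shown because the sections differed most in the balance of these 2 genes, so that it matters how unlike the transcripts are. They are read from the GENCODE transcripts, 5′ to 3′, whole for Scgb1a1 and bases 1 to 300 for Scgb3a1, and the capitals mark the longest run of bases that both hold, which is 8 bases long:
Scgb1a1: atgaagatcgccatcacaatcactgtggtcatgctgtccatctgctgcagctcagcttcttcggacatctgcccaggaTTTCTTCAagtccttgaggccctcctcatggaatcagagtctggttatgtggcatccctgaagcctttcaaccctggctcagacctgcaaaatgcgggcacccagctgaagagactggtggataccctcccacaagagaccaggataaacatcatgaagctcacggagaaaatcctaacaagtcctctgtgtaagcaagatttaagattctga
Scgb3a1: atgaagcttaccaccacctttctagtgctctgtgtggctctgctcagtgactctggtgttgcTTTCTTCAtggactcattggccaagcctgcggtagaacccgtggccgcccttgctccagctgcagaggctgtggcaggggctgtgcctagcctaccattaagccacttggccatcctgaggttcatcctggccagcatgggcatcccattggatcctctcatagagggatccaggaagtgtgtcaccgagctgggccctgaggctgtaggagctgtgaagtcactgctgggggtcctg
In a global alignment the 2 coding sequences were identical in 173 of 328 columns (52.7%). Over the whole transcripts the longest run shared by any pair of the 3 genes was 12 bases. UMIs were counted per molecule, so levels of the 3 genes were compared without a correction for length.

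The sections held 473 to 2053 spots and 6957392 to 34308556 UMIs, with a median of 6259 to 11355 UMIs per spot. The V male section stood apart from the other 3. It held no UMI of 5 of the 11 ciliated cell genes (Ccdc153, Tmem212, Foxj1, Fam183b and Ccdc113), of Muc5b or of Muc5ac, and its 6 cardiac genes summed to 19.5 counts per 1000000 UMIs of the section (CPM) against 5090 to 9698 in the other sections. Its alveolar type 2 gene Sftpc, at 36068 CPM, was the highest of the 4. Of the 4 sections labelled as airway branches, 3 thus held the full ciliated list, and results are given with and without the V male. Spot positions were not used here, and barcodes of 1 array recur in every section, so a shared barcode marks the same place on the array and not the same tissue. Between 392 and 1312 barcodes of a section also occurred in another.

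Scgb1a1 was abundant in the NV male and the V female, lower in the NV female and scarce in the V male. It reached 12429 CPM for the NV male section, 2108 for the NV female, 259 for the V male and 11518 for the V female, from 116661, 14663, 3074 and 395180 UMIs. The V and NV values overlapped, since the V male had less than either NV mouse and the V female lay between them. No neighbours in this order lay within counting error of each other: the exact 95% Poisson interval was 12357 to 12500 CPM in the NV male and 11482 to 11554 in the V female. The means were 7268 ± 7298 CPM in NV and 5889 ± 7962 in V (SD, n = 2 each).

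Scgb3a2 (ENSMUSG00000038791; plus strand of chromosome 18, 43764289 to 43767399) peaked in the V female and was nearly lacking in the V male. It stood at 200.3 CPM for the NV male, 86.2 for the NV female, 3.11 for the V male and 1168 for the V female, the V male value resting on 37 UMIs in 1565 spots. Both NV mice lay between the V mice. The means were 143 ± 80.6 CPM in NV and 586 ± 824 in V (SD, n = 2 each).

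Scgb3a1 was abundant in 1 section only. It reached 1322 CPM in the V female but the NV male had 11.1, the NV female 66.4 and the V male 11.6, from 45373, 104, 462 and 138 UMIs. The exact Poisson intervals of the NV male (9.05 to 13.4 CPM) and the V male (9.76 to 13.7) overlapped, so these 2 neighbours could not be separated at this depth. The means were 38.7 ± 39.1 CPM in NV and 667 ± 927 in V (SD, n = 2 each). Of the 31 other Scgb symbols, 25 held no UMI in any section, Scgb1c1 held 641 UMIs over all 4 and the other 5 held 1 to 13.

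**Figure D1:**
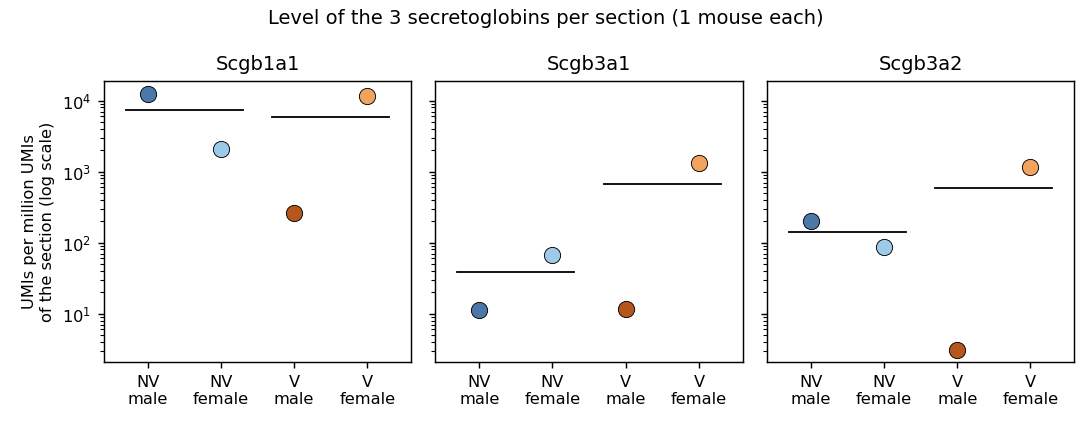
UMIs per 1000000 UMIs of the section (log scale) for the 3 genes, with 1 point per mouse and a line at each group's mean (n = 2). The V mice span 259 to 11518 for Scgb1a1, 11.6 to 1322 for Scgb3a1 and 3.11 to 1168 for Scgb3a2, and each range overlaps or encloses that of the NV mice.

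Whether exposure changed the level was tested on UMIs summed over each mouse, since spots of 1 section are not replicates. With edgeR's quasi-likelihood test over 14570 genes, the V against NV difference on the log2 scale was -0.21 (SE 1.83, adjusted p = 0.99974) for Scgb1a1, 4.19 (SE 2.34, adjusted p = 0.99974) for Scgb3a1 and 2.12 (SE 2.28, adjusted p = 0.99974) for Scgb3a2. None of the 3 was called, where a call needed an adjusted p under 0.05 and a log2 difference over 0.25 in size. The background is that 0 of 14570 genes were called (0%), while 248 had an unadjusted p under 0.05 and DESeq2's Wald test called 8 (0.0549%), none of them a secretoglobin. A difference in the number of airway cells under the spots and a difference in RNA per cell cannot be told apart in such sums.

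The tested differences rested on single mice. Without the V male, the edgeR differences were 0.74 (SE 0.89, adjusted p = 0.962) for Scgb1a1, 5.17 (SE 0.89, adjusted p = 0.184) for Scgb3a1 and 3.10 (SE 0.47, adjusted p = 0.137) for Scgb3a2, and 21 of 15083 genes were called (0.139%). Without the V female all 3 were negative: -4.95 (SE 1.15, adjusted p = 0.0627) for Scgb1a1, -1.87 (SE 0.94, adjusted p = 0.332) for Scgb3a1 and -5.66 (SE 0.64, adjusted p = 0.00467) for Scgb3a2, where 811 of 14831 genes were called (5.47%). In each of these fits the lone V mouse was assumed to vary as the NV mice did. Leaving out the NV male turned Scgb1a1 to 1.54 (SE 2.47, adjusted p = 0.9997).

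Within a sex, 1 V mouse stands against 1 NV mouse, so only the values can be given. In the males, Scgb1a1 of the V mouse was 0.0208 times and Scgb3a2 0.0155 times that of the NV mouse, and Scgb3a1 1.05 times. In the females the V mouse was above the NV mouse in all 3 genes, by 5.47 times for Scgb1a1, 19.9 times for Scgb3a1 and 13.5 times for Scgb3a2. Mice of the same group also differed: the NV male exceeded the NV female 5.90 times in Scgb1a1, and the V female exceeded the V male 44.5 times in Scgb1a1, 114 times in Scgb3a1 and 375 times in Scgb3a2.

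Other genes of airway epithelium followed the same split between sections. Of 9 genes of proximal secretory and mucous cells, all 9 were highest in the V female and 8 were lowest in the V male. Bpifa1, a secreted protein of proximal airway epithelium, stood at 157 CPM for the NV male, 52.0 for the NV female, 15.2 for the V male and 7466 for the V female. Of 11 ciliated cell genes, 10 were highest in the V female and 8 lowest in the V male, and 5 of them were at 0 there. The split was not confined to airway genes. All 4 smooth muscle genes were highest in the V female and lowest in the V male. All 6 cardiac genes and 4 of 5 adipose genes were also lowest in the V male. Of 4 alveolar type 2 and 4 type 1 genes, 0 were highest in the V female and 0 lowest in the V male. Basal cell genes were sparse, at 0.589 to 28.9 CPM for the sum of Krt5, Krt15 and Trp63, and Krt5 was at 0 outside the V female. The part that the amount of airway in a section plays in the secretoglobin levels was not tested.

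Club cell genes divided. Of 10, 4 were highest in the V female and 7 were lowest in the V male, where Upk3a tied at 0 with the NV female. Cyp2f2, a cytochrome P450 of club cells, ran with the secretoglobins at 262, 99.9, 23.8 and 1013 CPM in the NV male, NV female, V male and V female. Cbr2, a carbonyl reductase, did not, at 2615, 1567, 3411 and 2936 CPM in the same order, with both V mice above both NV mice. Of the 10 club genes, 2 lay higher in both V mice than in both NV mice (Cbr2 and Pon1) and 1 lower (Retnla), against 12.6% and 14.4% of all 14570 genes in these directions, and none of the 3 secretoglobins did either.

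With all 4 mice, the model called no gene of these lists. Of 9 club genes tested, 0 were called and 5 had a positive difference, with a median of 0.05 on the log2 scale. Of 7 proximal secretory genes tested, 0 were called and all 7 differences were positive, with a median of 3.24. Of 11 ciliated genes tested, 0 were called and all 11 were positive, with a median of 1.28. The median over all genes was 0.03.

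The V female decided the direction of these lists. Without it, 0 of 7 proximal secretory genes and 1 of 11 ciliated genes had a positive difference, with medians of -2.93 and -2.86, and the 9 club genes had a median of -1.72. Lower in that fit were 3 ciliated genes (Ccdc153, Foxj1 and Fam183b) and 4 club genes (Cyp2f2, Aldh1a7, Cldn10 and Retnla), where 5.47% of all genes were called. Without the V male the medians were 4.56 over 8 proximal secretory genes, 2.20 over 11 ciliated genes and 0.57 over 9 club genes, and 4 proximal secretory genes were higher (Bpifa1, Reg3g, Lypd2 and Agr2), where 0.139% of all genes were called. The ciliated median was also 0.10 (8 of 11 positive) with the replicate number as a block and 0.21 (8 of 11 positive) with limma on the mean over spots.

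Over whole sections, transcription factors that act on secretoglobin promoters, among them Nkx2-1 and the FOXA and C/EBP families, did not share the pattern. Nkx2-1 stood at 131 CPM for the NV male, 100.04 for the NV female, 154 for the V male and 86.5 for the V female, its highest value being in the section with the least Scgb1a1. Of the 13 regulators, 4 were highest in the V female and 1 lowest in the V male, and Sox2, a factor of proximal airway epithelium, was that gene, with no UMI in the V male section and 10.6 CPM for the V female. With all 4 mice, 0 of 12 tested were called, with a median of 0.15. In the ciliated-rich spots described below, 0 of 10 tested were called with all 4 mice and the median was also 0.15. There it was 0.53 without the V male (7 of 11 positive) and -0.11 without the V female (3 of 10 positive). Genes of reported receptors or binding partners of secretoglobins, which include Marco, a scavenger receptor of macrophages, gave 0 calls among 5 tested and a median of 0.05 with all 4 mice. Marco stood at 14.2, 10.9, 54.5 and 22.1 CPM in the NV male, NV female, V male and V female, and no other gene of these 6 lay higher or lower in both V mice than in both NV mice. Over all 14570 genes, 12.6% lay higher in both V mice and 14.4% lower. Without the V female, the medians were 0.22 over 12 regulators and 0.19 over 5 partners. Without the V male they were 0.25 over 13 regulators and -0.07 over 5 partners. Fits that left out a V mouse did call Marco and, in the ciliated-rich spots, some regulators. In those fits the lone V mouse was assumed to vary as the NV mice did.

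Since Scgb3a1 was abundant in 1 section only, its promoter is given. The 250 bases before its start, from RefSeq for GRCm38.p6 at chr11:49663345-49663594 on the plus strand, read 5′ to 3′ as follows, with the matches found in capitals:
Scgb3a1 promoter: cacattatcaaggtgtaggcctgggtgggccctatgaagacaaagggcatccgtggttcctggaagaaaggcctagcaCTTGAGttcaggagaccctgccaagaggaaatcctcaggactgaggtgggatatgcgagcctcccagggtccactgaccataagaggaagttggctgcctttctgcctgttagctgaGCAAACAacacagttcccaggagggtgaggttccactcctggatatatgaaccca
The search covered both strands. The letters CTCAAG, bound by NKX2-1, matched once, on the minus strand at position -172, and are found in 13.3% of 32851 promoter windows of the same length. The letters TGTTTGC, bound by FOXA factors, matched once, on the minus strand at position -55, and are found in 4.30% of them. The C/EBP letters TTGCNNAA and the TATA box letters TATAAA had no match here and are found in 9.56% and 12.4% of the windows. The matches did not overlap and are descriptions of the letters alone.

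The 3 genes were more concentrated in few spots than the median gene, least so Scgb1a1 of the V male. The level in the other spots differed widely between genes and sections. From the 10th to the 90th percentile of spots, Scgb1a1 ran from 3833 to 11801 CPM in the NV male and from 4208 to 11630 in the V female. The median spot held 0 of Scgb3a1 in both NV mice and the V male. To keep chance from inflating the measure, spots were ranked on a random split of the UMIs and the share of the remaining UMIs in the top 5% of spots was taken. For Scgb1a1 that share was 48.5% for the NV male, 61.1% for the NV female, 16.5% for the V male and 52.3% for the V female. For Scgb3a2 it was 53.9%, 69.3%, 50.0% and 67.7% in the same order, and for Scgb3a1 51.0%, 61.6%, 30.3% and 61.8%. The median gene with at least 500 UMIs had 10.4% to 15.7% of its UMIs in its top spots. Depth entered these shares: with every spot thinned to 3000 UMIs, the share of Scgb1a1 was 27.2% for the NV male, 63.7% for the NV female, 10.9% for the V male and 34.3% for the V female. The thinned shares of Scgb3a1 and Scgb3a2 were 35.5% and 42.1% in the V female, and that of Scgb3a2 was 32.4% in the NV male. Some shares rest on few UMIs: the exact 95% binomial interval was 24.7% to 75.3% for Scgb3a2 in the V male, from 16 UMIs, and 36.3% to 65.6% for Scgb3a1 in the NV male, from 49. These intervals cover counting error only.

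Ranked against other genes, Scgb3a2 was number 3 of 8519 genes in the V female, 3 of 2382 in the NV female and 6 of 3361 in the NV male. Scgb3a1 was number 9 of 8519 in the V female, and Scgb1a1 number 12 to 48 in its 4 sections. A given share was reached in very different numbers of spots. In the NV female, 2 of 473 spots held 53.8% of Scgb1a1, 52.4% of Scgb3a1 and 68.0% of Scgb3a2. In the V female it took 84 of 2053 spots to hold 50% of Scgb1a1, and in the V male 243 of 1565.

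**Figure D2:**
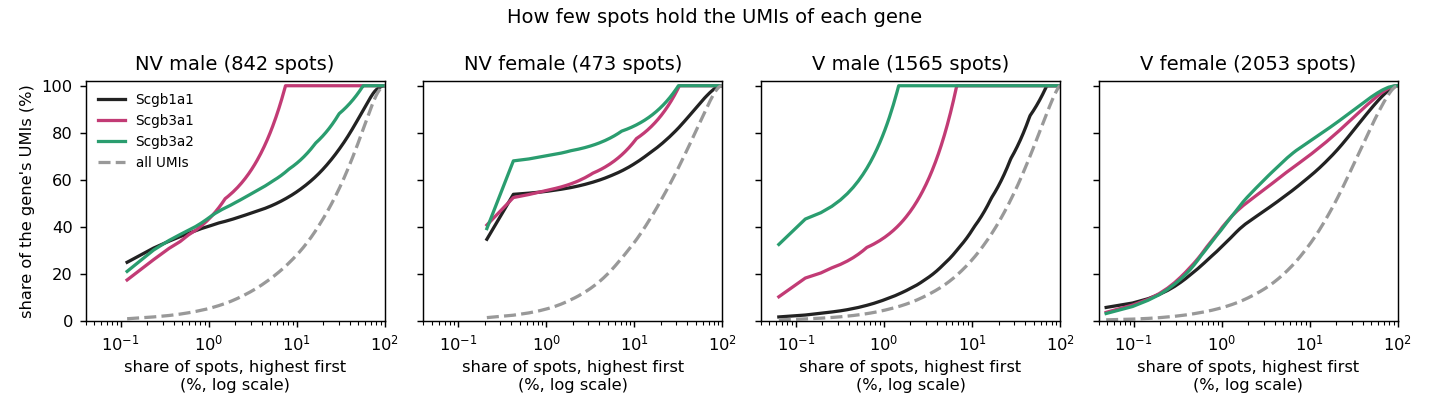
Cumulative share of each gene's UMIs (vertical axis, %) over spots ordered from the highest down (horizontal axis, share of spots in %, log scale), with all UMIs as the dashed line. Spots are ordered and summed on the same counts, which by itself lifts sparse genes such as Scgb3a2 in the V male (37 UMIs). The NV female curves jump at 2 spots, and Scgb1a1 of the V male runs close to all UMIs.

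Single spots carried much of the signal. In the NV male, 1 spot held 28966 Scgb1a1 UMIs, 39.6% of its own 73184 UMIs and 24.8% of all Scgb1a1 in the section (exact 95% interval 24.6% to 25.1%). That spot held 394 Scgb3a2 UMIs but 0 of Scgb3a1. In the NV female, the highest spot held 5078 UMIs of Scgb1a1, 188 of Scgb3a1 and 235 of Scgb3a2, and the next 2805, 54 and 173. No other spot there held more than 74 of Scgb1a1. In the V male, the highest spot held 48, 14 and 12 UMIs and another 23, 11 and 4, and these 2 spots together held 16 of the 37 Scgb3a2 UMIs of the section.

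Spots were then sorted by genes other than secretoglobins, with limits set after the levels had been seen. Ciliated-marked spots held at least 5 UMIs of 7 genes specific to ciliated cells (Foxj1, Ccdc153, Tmem212, 1110017D15Rik, Fam183b, Ccdc113 and 1700016K19Rik), which share the airway lining with secretory cells. There were 5 for the NV male, 2 for the NV female, 0 for the V male and 95 for the V female. A rule on UMIs favours deep spots: the ciliated-marked spots had a median of 37913, 11332 and 40291 UMIs in the 3 sections that held them. Unmarked spots held none of the 7 genes and little heart or fat, and numbered 637, 392, 1556 and 1057. Spots with some UMIs of the 7 genes, but fewer than 5, were in neither of these classes. Cardiac-rich spots, with at least 2% of UMIs in 6 heart muscle genes, numbered 95, 40, 0 and 77 and served as spots chosen for another tissue. They were not free of airway genes in every section, since the 7 ciliated genes summed there to 4.80 CPM (NV male), 3.47 (NV female) and 51.0 CPM (V female).

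Scgb1a1 reached 219533 CPM in the ciliated-marked spots of the NV male, 347836 in those of the NV female and 51050 in those of the V female, which was 26.4, 323 and 7.79 times the level in unmarked spots. These few spots held 36.7%, 53.8% and 48.6% of all Scgb1a1. Scgb3a2 reached 3553, 18003 and 6861 CPM there, or 30.1, 596 and 17.5 times the unmarked level. Scgb3a1 reached 10678 CPM in those of the NV female and 7114 in those of the V female, or 307 and 12.5 times the unmarked level. In the NV male the 5 ciliated-marked spots held 0 Scgb3a1 UMIs among 195073, which allows up to 15.4 CPM (3 counts), so at this depth a level equal to that of the section (11.1 CPM) was not excluded. This 0 rests on the limit of 5 ciliated UMIs. With a limit of 3, the NV male had 11 marked spots, which held 18 Scgb3a1 UMIs, all in 1 spot, or 69.0 CPM and 17.3% of the gene's UMIs in the section. The V female then had 205 marked spots, with 31280 CPM of Scgb1a1, 4259 of Scgb3a1 and 4079 of Scgb3a2, and the 2 spots of the NV female stayed the same. No test was made over spots, which are not replicates.

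Outside these spots Scgb1a1 was still counted widely. In unmarked spots Scgb1a1 stood at 8329 CPM for the NV male, 1076 for the NV female, 257 for the V male and 6557 for the V female, the same order as over whole sections. Cardiac-rich spots held 3419, 612 and 4963 CPM in the 3 sections that had them, that is 41.0%, 56.9% and 75.7% of the unmarked level. Sftpc, which alveolar type 2 cells make, was lower in the same cardiac-rich spots, at 18.0%, 15.1% and 19.2%. For Scgb3a1 and Scgb3a2 the V female's cardiac-rich spots were at 114% and 139% of the unmarked level, so in that section the level outside ciliated-marked spots was no lower over heart muscle than over lung. The part that ciliated epithelium in those cardiac-rich spots plays was not tested.

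**Figure D3:**
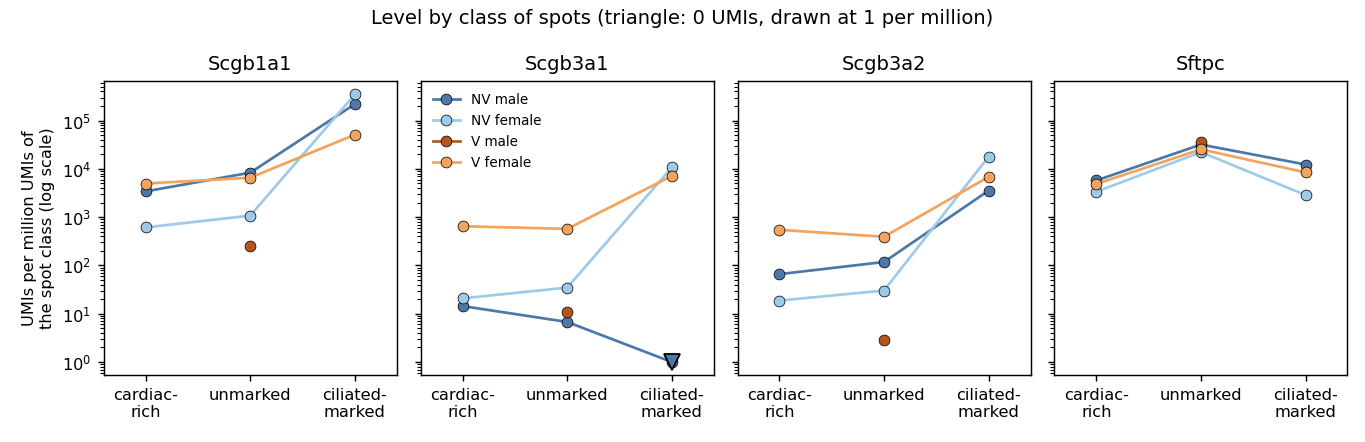
UMIs per 1000000 UMIs of each class of spots (log scale) for the 3 genes and for Sftpc, with 1 line per section. The V male has unmarked spots only. Scgb1a1 and Scgb3a2 are higher in ciliated-marked than in unmarked spots in all 3 sections that hold both, whereas Sftpc is highest in the unmarked spots, and the triangle marks the 0 UMIs of Scgb3a1 in the NV male.

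The share of spots with at least 1 UMI was compared after every spot had been thinned to 3000 UMIs, which left out 111, 52, 202 and 224 shallower spots. Scgb1a1 was then found in 100% of spots of the NV male and of the V female, 93.1% of the NV female and 50.6% of the V male. Scgb3a1 was found in 3.01%, 9.50%, 3.01% and 80.9% of spots of the NV male, NV female, V male and V female, against 7.48%, 32.6%, 6.71% and 94.5% without thinning. Scgb3a2 was found in 30.5%, 9.26%, 0.954% and 70.8%, against 57.0%, 31.7%, 1.47% and 90.9% without thinning. In the V female, Scgb3a1 was in 71.4% of cardiac-rich spots (exact 95% interval 60.0% to 81.2%) and 80.9% of unmarked spots (78.1% to 83.5%). Scgb3a2 of the NV male was found in 15.2% of cardiac-rich (8.10% to 25.03%) and 29.7% of unmarked spots (25.8% to 33.7%). These intervals count spots as independent, which spots of 1 section are not, so whether they overlap decides nothing. The classes also differ in airway content, since unmarked spots held none of the 7 ciliated genes by definition. The share in unmarked spots was not read as expression. Median depths of the cardiac-rich and unmarked spots before thinning were 37144 and 7193 UMIs in the V female and 13118 and 9068 in the NV male.

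The secretoglobins were also compared in the 10% of spots of each section with the highest share of 11 ciliated genes. The rule was the same for each mouse, but the airway content of the spots was not. In these spots the 7 specific ciliated genes summed to 186 CPM for the NV male, 115 for the NV female, 3.38 for the V male and 521 for the V female. Scgb1a1 stood there at 63546 CPM for the NV male, 18400 for the NV female, 277 for the V male and 51493 for the V female. Scgb3a1 stood at 40.1, 571, 19.2 and 7074 and Scgb3a2 at 1126, 906, 6.76 and 6821 CPM in the same order, so that the NV values of these 2 genes lay between the V values, while for Scgb1a1 the V female lay between the NV mice. The spots of the V male differed most: Sec14l3 made up 92.3% of its ciliated list, and the 7 specific genes held 3 UMIs in 157 spots. With edgeR the V against NV difference was -0.55 (SE 1.79, adjusted p = 0.9998) for Scgb1a1, 3.72 (SE 2.30, adjusted p = 0.9998) for Scgb3a1 and 1.88 (SE 2.05, adjusted p = 0.9998) for Scgb3a2. The test called 0 of 9850 genes (0%), with 199 at an unadjusted p under 0.05, and DESeq2 called 3 (0.0305%).

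Here too a single mouse decided the call. Without the V male, edgeR gave 0.43 (SE 0.21, adjusted p = 0.249) for Scgb1a1, 4.74 (SE 0.27, adjusted p = 1.28e-65) for Scgb3a1 and 2.86 (SE 0.25, adjusted p = 2.82e-27) for Scgb3a2, with 755 of 10694 genes called (7.06%). Without the V female it gave -7.33 (SE 0.30, adjusted p = 5.81e-123), -3.98 (SE 0.37, adjusted p = 2.25e-24) and -7.30 (SE 0.43, adjusted p = 1.91e-61), with 462 of 10433 called (4.43%). In both fits the tool gave all genes the spread of a common trend, taken from the NV mice, and set aside each gene's own, although the NV mice differed 3.45 times in Scgb1a1, so that these p-values do not measure the spread between mice of these 3 genes.

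The balance of the 3 genes within a section does not depend on its total. Per 100 Scgb1a1 UMIs there were 0.0891 of Scgb3a1 for the NV male, 3.15 for the NV female, 4.49 for the V male and 11.5 for the V female, both V mice above both NV mice. Per 100 Scgb1a1 UMIs there were 1.61 of Scgb3a2 for the NV male, 4.09 for the NV female, 1.20 for the V male and 10.1 for the V female, which overlapped. Per 100 Scgb3a2 UMIs there were 5.53, 77.0, 373 and 113 of Scgb3a1 in the same order. The V minus NV differences of the log2 ratios were 3.76, 0.44 and 3.32, with exact permutation p = 0.333, 1.0 and 0.333 (two-sided, n = 2 each), where 0.333 is the smallest p that 2 against 2 mice allow. The p-values were not adjusted for the 3 ratios, since none could pass. The size rested on the NV mice: without the NV male the 3 differences were 1.19, -0.23 and 1.42, and without the NV female 6.33, 1.12 and 5.22. That of Scgb3a2 to Scgb1a1 was 1.98 without the V male and -1.09 without the V female.

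In the unmarked spots alone the ratio of Scgb3a1 to 100 Scgb1a1 kept its order, at 0.0812, 3.23, 4.20 and 8.71. The NV mice differed from each other more than the NV female differed from the V male. Adding any test over spots would count 1 mouse many times and was not done.

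The ciliated-marked spots of the V female were of different kinds. Scgb3a1 ran from 0.110 to 33.9 UMIs per 100 Scgb1a1, with a median of 17.1 over the 95 spots. In 86 of them it was 8 or more, and these held 40912 CPM of Scgb1a1 and 39713 of Bpifa1. In 7 it was under 2, and these held 200136 CPM of Scgb1a1 but 2821 of Bpifa1. Scgb3a1 in those 7 spots stood at 387 CPM, below the 571 of the section's unmarked spots. The remaining 2 lay at 7.35 and 7.94. The grouping used the ratio itself, so only Bpifa1 and other genes describe it.

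Pooled, the NV male's 5 ciliated-marked spots held 219533 CPM of Scgb1a1, against 200136 in the 7 of the V female. Single spots weighed heavily in both values. In the NV male 1 spot held 28966 of the 42825 Scgb1a1 UMIs, and the highest of the 7 held 22147. The 5 spots held less Bpifa1, at 46.1 CPM, and no Scgb3a1 (at most 0.00701 per 100 Scgb1a1, from 3 counts). In the NV male's 11 spots marked at the limit of 3 the ratio was 0.0393 and Bpifa1 stood at 947 CPM. Its highest Scgb3a1 spot, marked only at that lower limit with 3 ciliated UMIs, held 18 Scgb3a1 UMIs among 3867, together with 234 of Bpifa1, 345 of Scgb1a1 and 47 of Scgb3a2. The 2 spots of the NV female lay between, at 1.93 and 3.70 per 100 Scgb1a1, with 8 and 67 Bpifa1 UMIs. Scgb3a2 had a median of 1.21 per 100 Scgb1a1 in the 7 spots of the V female and 17.6 in the 86, groups that share the Scgb1a1 count with this ratio, and of 2.24 in the 5 spots of the NV male.

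**Figure D4:**
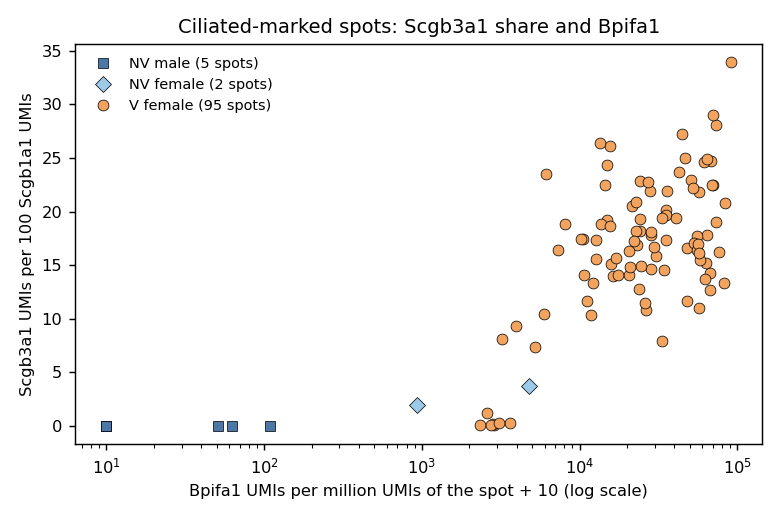
Scgb3a1 UMIs per 100 Scgb1a1 UMIs (vertical axis) against Bpifa1 CPM of the spot with 10 added (horizontal axis, log scale) in the ciliated-marked spots, 1 point per spot. The 5 NV male spots lie at 0, the 7 spots of the V female under 2 form a separate group with less Bpifa1, and 86 spots of the V female lie at 8 or more.

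The genes coincided over spots to a degree that differed by section. In the V female, the top 5% of spots (103) for Scgb3a1 and Scgb3a2 had 91 in common (88.3% of each list), those for Scgb1a1 and Scgb3a2 77 (74.8%) and those for Scgb1a1 and Scgb3a1 75 (72.8%). In the NV male, Scgb1a1 and Scgb3a2 had 29 of 43 in common (67.4%), but Scgb1a1 and Scgb3a1 had 4 (9.30%) and Scgb3a1 and Scgb3a2 10 (23.3%). In the NV female and V male the shared part was 10.1% to 37.5% for the 3 pairs, and many of those lists were filled with spots of 1 UMI or none. Over spots, Pearson's r of log levels was 0.41 for Scgb1a1 and Scgb3a1, 0.56 for Scgb1a1 and Scgb3a2 and 0.51 for Scgb3a1 and Scgb3a2 in the V female (2042 spots), and 0.08, 0.56 and 0.26 in the NV male (820 spots). Without the ciliated-marked spots the V female gave 0.15, 0.33 and 0.26 and the NV male 0.09, 0.50 and 0.28. For the NV female (460 spots) r was 0.32, 0.39 and 0.39, and -0.05, 0.03 and 0.02 without the 2 ciliated-marked spots. In the V male (1561 spots) r was 0.10, 0.13 and 0.31. Spots of a section share a library and differ in depth, so these values describe the sections and carry no p.

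**Figure D5:**
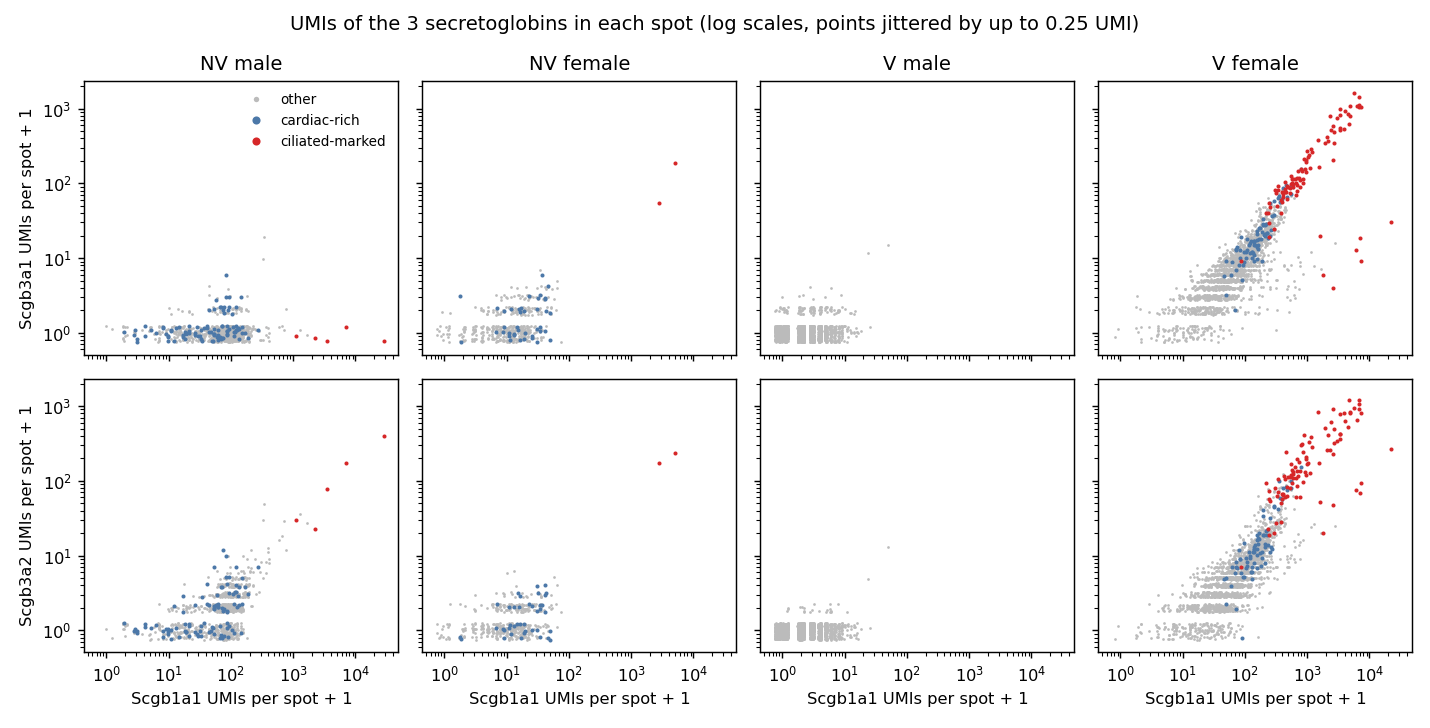
Scgb3a1 (top) and Scgb3a2 (bottom) UMIs against Scgb1a1 UMIs in every spot of the 4 sections (log scales, 1 added, points moved at random by up to 0.25 UMI), with ciliated-marked and cardiac-rich spots in colour. The highest Scgb1a1 spots of the NV male lie on the floor of Scgb3a1 while following Scgb3a2, 2 spots stand alone in the NV female, and 7 ciliated-marked spots of the V female fall below the main cloud in Scgb3a1.

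The genes most like each member over spots were found by the mean of r over the 4 sections among 10382 genes with at least 50 UMIs in each section. Genes scarce in a section could thus not be listed, such as Foxj1, Ccdc153 and Muc5b, which had 0 UMIs in the V male. For Scgb1a1 they were Cbr2 (mean r 0.36), Cyp2f2 (0.34), Wfdc2 (0.31), Aldh1a1 (0.31), Dynlrb2 (0.25), Sftpb (0.25), Cd24a (0.24) and Bpifa1 (0.24). For Scgb3a1 they were Bpifa1 (0.43), Cyp2f2 (0.25), Dynlrb2 (0.21), Cxcl17 (0.21), Gsto1 (0.19), Tspan1 (0.17), Cyp2s1 (0.14) and Pon1 (0.13). For Scgb3a2 they were Bpifa1 (0.36), Cyp2f2 (0.32), Dynlrb2 (0.23), Cxcl17 (0.20), Tspan1 (0.19), Gsto1 (0.18), Wfdc2 (0.17) and Pon1 (0.17). In the V male the r of Scgb1a1 with its nearest gene Cbr2 was 0.01, whereas Bpifa1 kept an r of 0.30 with Scgb3a1 and 0.34 with Scgb3a2 there, from 180 Bpifa1 UMIs. The NV male's r of Bpifa1 was 0.09 with Scgb1a1 and 0.47 with Scgb3a1.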

How the data were processed

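Lung sections of 2 V and 2 NV mice (1 male and 1 female each) were profiled with Visium. With Space Ranger, the authors mapped reads to GRCm38 (mm10), and they deposited raw UMI counts per gene and spot, unnormalized, with 32285 genes per section. Seurat 4.0.3 is named in the submitters' processing notes and left no trace in these counts. Groups came from the labels. The members, gene lists and tests were chosen with earlier results of these data known, and the spot classes after levels had been seen. Genes named are the members, other Scgb symbols with UMIs, the leading genes of the lists, and the 8 genes most like each member. Levels are CPM, UMIs per 1000000 UMIs, without further scaling.

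UMIs were summed per mouse and tested with edgeR 4.0.16 in R 4.3.3 (TMM, filterByExpr, quasi-likelihood test, Benjamini-Hochberg adjustment over all genes tested). SEs came from the log2 difference and its F statistic. Alternatives were DESeq2 1.42.0, limma 3.58.1, other scalings, filters, depths and spot sets, the replicate block and each mouse left out. Correlations used log1p of counts per 10000 in spots with at least 500 UMIs and, for likeness, genes with at least 50 UMIs in each section. Shares used all spots, with exact 95% intervals. The statistics were checked on simulated data. The counts simulated for edgeR and DESeq2 varied less between mice than these data do, so that check does not cover a spread of this size. Spot positions and images were not analysed here.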

Additional observations from a re-analysis of the deposited data

Results flagged for a closer look

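The V against NV difference ran in opposite directions in the 2 sexes for 2 of the 3 genes, with 1 mouse of each sex in each group. For Scgb1a1 the log2 ratio of V to NV was -5.59 in the males and 2.45 in the females. For Scgb3a2 it was -6.01 in the males and 3.76 in the females. The difference between the sexes was not tested, and with 1 mouse per sex and group, sex, animal and section cannot be told apart. The V male section held none of 5 ciliated genes and no cardiac-rich spot, and the part of this in the ratios was not tested.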

How the results depend on the processing

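Of the V against NV differences, those of Scgb3a1 stayed positive in every alternative other than leaving out the V female. Those of Scgb1a1 turned without the NV male and without the V male. Those of Scgb3a2 turned without the V female and in other alternatives. The mouse left out set direction and call: the differences ranged from -4.95 to 1.54 for Scgb1a1, -1.87 to 6.0 for Scgb3a1 and -5.66 to 3.10 for Scgb3a2 over the whole section, and from -7.33 to 0.66, -3.98 to 6.54 and -7.30 to 2.86 in the ciliated-rich spots, with 0 to 811 and 0 to 755 genes called. With each mouse left out, the log2 ratio difference ranged from -1.09 to 1.98 for Scgb3a2 to Scgb1a1, 1.19 to 6.33 for Scgb3a1 to Scgb1a1 and 1.42 to 5.22 for Scgb3a1 to Scgb3a2. Scgb3a2 also turned to -1.21 (adjusted p = 0.978) with limma on the mean over spots. DESeq2 called 8 and 3 genes in place of 0. With no filter on low counts in the ciliated-rich spots, edgeR called 92 genes, with Scgb3a1 at 3.75 (adjusted p = 1.07e-13) and Scgb3a2 at 1.89 (adjusted p = 0.00208), where the fit gave all genes the spread of a common trend.

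The replicate number equals sex in both groups and does not pair animals. With the replicate block, Scgb1a1 was -1.59 (adjusted p = 0.979), Scgb3a1 2.21 (adjusted p = 0.941) and Scgb3a2 -1.04 (adjusted p = 0.989) over the whole section, Scgb3a2 was -1.82 (adjusted p = 0.9999) in the ciliated-rich spots, and 0 genes were called in both. With 2 mice per group the deviations of same-numbered mice give a single correlation, which was 0.32.

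Of 144 alternative values of the shares of spots with a UMI, shares in the top spots and overlaps and correlations over spots, 33 moved by more than the spread between the mice of a group. That spread was often wide between the V mice, so large changes could count as not moved. In the V female the share of spots with Scgb3a1 fell from 80.9% to 47.1% when thinned to 1000 UMIs, and was not counted. Depth limits Scgb3a1 in the NV male and V male and Scgb3a2 in the V male, where 104, 138 and 37 UMIs were counted. Leaving out spots under 500 UMIs, thinning sections to the same total, unmarked spots alone and a ciliated list without Sec14l3 (the last 2 chosen after seeing the data) changed no direction or call of the 3 genes.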
